A study of Homo sapiens with 4 samples.

Results

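The genes described here build the ribosome. They are 42 genes chosen by function, namely the transcription factor MYC and 41 nucleolar genes. They were chosen with earlier results of these data known, so the counts of members below are descriptions and no test. The groups were ribosomal DNA transcription by RNA polymerases I and III, the nucleolar scaffold and the small nucleolar ribonucleoproteins (snoRNPs). The other groups were the 2 ribosomal subunits and late maturation. Each gene was read from the brightest probe set that names it alone, and 36 of the 42 genes had one, out of 19777 genes on the array. A signal of at least 100 on 1 array of a line was reached by 34 members in the MDA-MB-231 line and 29 in the T-47D line, by 35 in either line and by 28 in both. The data were 4 Affymetrix U133 Plus 2.0 arrays, 1 per group, of 2 human breast cancer cell lines: MDA-MB-231 with JPH203, MDA-MB-231 with Captisol, T-47D with JPH203 and T-47D with Captisol. MDA-MB-231 is a triple negative line and T-47D an estrogen receptor-positive one. The treated cells were given 100 μM JPH203, an inhibitor of the leucine transporter LAT1, for 24 h, and the control cells the same concentration of Captisol, a modified cyclodextrin. There was 1 array per group, so the differences have no replicates behind them and no error or p-value can be given.

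Ribosomes are assembled in the nucleolus. RNA polymerase I copies the ribosomal DNA into a long precursor, snoRNPs guide its chemical modification, the small subunit processome and the large subunit factors fold and cut it, and the subunits are then exported and finished in the cytoplasm. RNA polymerase III makes the 5S RNA of the large subunit. MYC binds E-boxes, short DNA sites that include CACGTG, and raises the transcription of many of these genes in growing cells. Amino acid supply is known to act on ribosome production through the kinase mTORC1. The arrays measure the messenger RNA of the factors and not the ribosomes.

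The labels of the arrays were checked with marker genes. On the Captisol arrays 7 of 8 mesenchymal markers were 2-fold or more above T-47D in the MDA-MB-231 line, all 10 luminal markers were 2-fold or more below it, and the 4 measured leukocyte markers were below 100 on all 4 arrays. The arrays had 10831 to 11857 probe sets at a signal of 100 or above. The 3′ over 5′ ratio of ACTB was 1.72 on the T-47D array with JPH203 against 1.39 on that with Captisol, and 1.44 against 1.45 on the MDA-MB-231 arrays. That of GAPDH was 0.867 against 0.94 on the T-47D arrays and 1.01 against 0.987 on the MDA-MB-231 arrays. Each array has the same mean signal, so a change of all transcripts together could not be seen. The poly-A control transcripts, added to the RNA before labelling, had ratios of JPH203 over Captisol of 0.936 in the MDA-MB-231 line and 1.58 in T-47D, and a ratio of MDA-MB-231 over T-47D of 0.312 with Captisol, so that scaling to them moves all genes together and is given beside the results below.

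The first question was how the levels of the ribosome factors compared between the 2 lines. MDA-MB-231 cells had the higher signal for most members. With Captisol, 28 members reached 100 on both arrays, of which 17 were 2-fold or more above T-47D in the MDA-MB-231 line and 0 were 2-fold or more below, while among all 5688 genes measured the same way 16.3% were higher and 16.1% lower by this rule. The median log2 ratio of these 28 members was 1.09, against 0.02 over all genes, and 24 of them lay above a ratio of 1, where 50.9% of all genes did. With the minimum on 1 array alone the median was 1.17 over 34 members. Of these, LYAR, POLR3G, TCOF1, WDR43 and NOP2 passed it only through MDA-MB-231 and UBTF only through T-47D, so that their side was set by the filter. On the JPH203 arrays the same rule called 14 of 28 members higher in MDA-MB-231 and 0 lower, against 18.4% and 19.9% of 5480 genes, the median log2 ratio of the 28 was 1.1, against -0.03 over all genes, and 22 of them lay above a ratio of 1, against 48.9% of all genes. The higher side was kept under each of the scalings tried, and with poly-A scaling, which moved the median log2 ratio of all genes to 1.68, all 28 members were called higher with Captisol. With the mean of a gene's probe sets in place of the brightest, 11 of 18 were called higher, for which no share of all genes was taken. Of the called members 13 were called on both pairs of arrays, FBL, NOP58, WDR12 and WDR75 with Captisol alone and RRS1 with JPH203 alone.

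**Figure D1:**
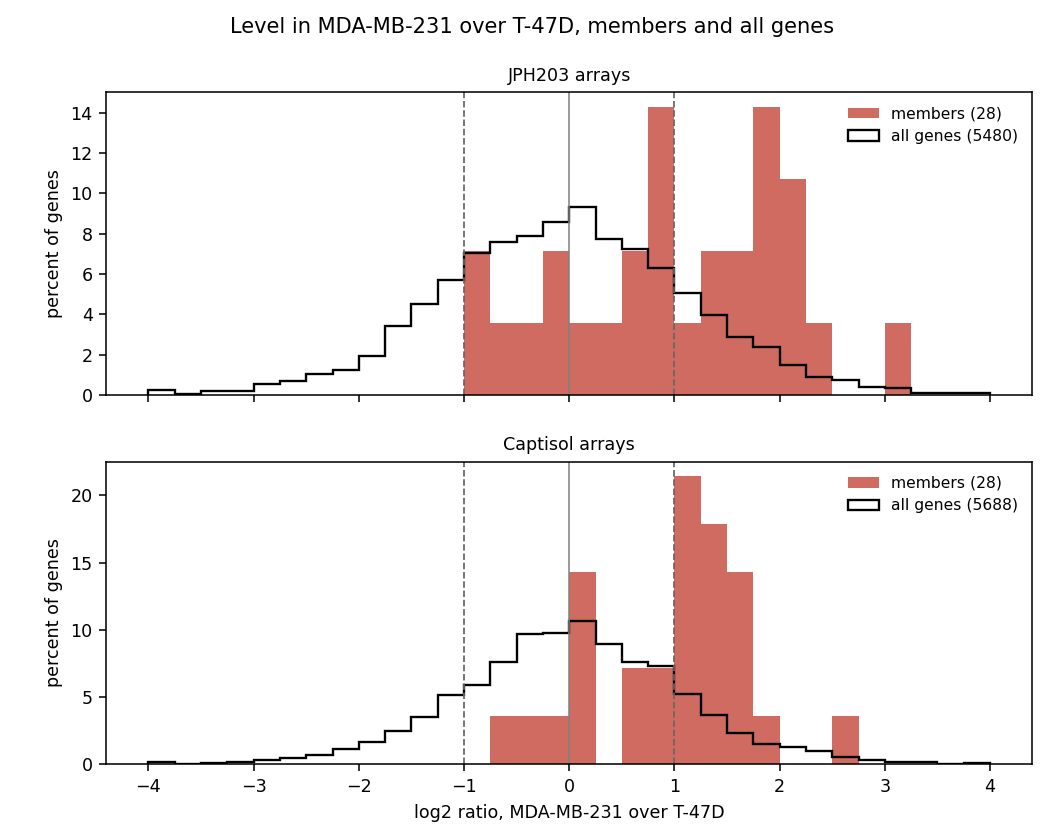
Share of genes (percent, vertical axis) by the log2 ratio of MDA-MB-231 over T-47D (horizontal axis, bins of width 0.25), on the JPH203 arrays above and the Captisol arrays below, for members (filled) and all genes (line) that reached a signal of 100 on both arrays; values beyond the axis stand in the outermost bins and dashed lines mark 2-fold. The members lie to the right of all genes on both pairs of arrays, with 14 of 28 and 17 of 28 at or past 2-fold.

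MYC itself had the highest between-line ratio of the members measured at 100 or above in both lines. With JPH203 its signal was 975.5 in MDA-MB-231 against 118.0 in T-47D, and with Captisol it was 868.2 in MDA-MB-231 against 142.7 in T-47D. Both MDA-MB-231 arrays thus stood above both T-47D arrays, by a ratio of 8.27 with JPH203 and 6.08 with Captisol. This order held for 38.7% of all genes at 100 or above on all 4 arrays. MYC had 1 probe set of its own, and its T-47D signals lay near the minimum of 100, which limits these ratios. Among the members at 100 or above on both arrays, MYC alone lay above the range of ratios, 0.23 to 4.64, that holds the central 95% of all genes on the Captisol arrays. On the JPH203 arrays 2 members at 100 or above on both lay above the same range there, 0.195 to 5.02, namely MYC and RRP1B, a nucleolar protein of large subunit assembly, whose ratio was 5.08.

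In the group that transcribes ribosomal RNA genes, POLR1B, the second-largest subunit of RNA polymerase I, was called. With JPH203 it had 502.8 in MDA-MB-231 against 146.0 in T-47D, and with Captisol 519.0 against 243.4. POLR1C, a subunit that polymerases I and III share, had 388.6 in MDA-MB-231 against 562.8 in T-47D with JPH203, and 384.3 against 385.2 with Captisol. These 2 polymerase subunits therefore differed, POLR1B being lowest and POLR1C highest in T-47D with JPH203. TCOF1 (treacle, which acts with polymerase I) and POLR3G (a polymerase III subunit) reached 100 in the MDA-MB-231 line alone, TCOF1 at 134.9 with JPH203 and 142.2 with Captisol, and POLR3G at 114.2 with JPH203 and 125.2 with Captisol. Their T-47D signals lay at or below 51.6, too dim for the ratio to be read as a size. UBTF, the factor that binds ribosomal DNA and recruits polymerase I, reached 100 in T-47D alone, so that its side was set by the filter. It had 97.4 in MDA-MB-231 against 108.3 in T-47D with JPH203, and 88.3 against 150.9 with Captisol. POLR1A, the largest subunit, was below 100 on all 4 arrays.

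The scaffold group was split. NCL (nucleolin, a major nucleolar RNA-binding protein) had 3526.9 in MDA-MB-231 against 840.2 in T-47D with JPH203, and 3671.9 against 1308.6 with Captisol. NOLC1, a chaperone of snoRNPs, had 1936.3 in MDA-MB-231 against 585.6 in T-47D with JPH203, and 2070.1 against 980.5 with Captisol. LYAR, a nucleolar zinc finger protein, had 792.0 against 88.0 with JPH203 and 926.4 against 97.7 with Captisol, so that it fell just short of the minimum in T-47D. NPM1 (nucleophosmin), the chaperone of the outer nucleolus, was the exception, with 6627.5 in MDA-MB-231 against 11669.0 in T-47D with JPH203, and 7253.6 against 7723.8 with Captisol. The 3 probe sets of NPM1 gave ratios of 0.939, 0.899 and 0.709 with Captisol, so none put it higher in MDA-MB-231.

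Among the snoRNP core proteins, FBL (fibrillarin, the methyltransferase of box C/D snoRNPs) had 2890.4 in MDA-MB-231 against 1735.8 in T-47D with JPH203, and 3236.0 against 1586.8 with Captisol. NOP58, its partner in the same particle, had 688.8 against 405.2 with JPH203 and 922.2 against 432.3 with Captisol. With Captisol ratios of 2.04 and 2.13, FBL and NOP58 passed 2-fold by little. NHP2, of the box H/ACA snoRNPs that guide pseudouridylation, had 3572.9 in MDA-MB-231 against 4600.9 in T-47D with JPH203, and 3677.4 against 3449.3 with Captisol, a ratio of 1.07.

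The small subunit processome is the large particle that folds and cleaves the 18S part of the precursor. All 7 of its members at 100 or above on both Captisol arrays had a ratio above 1, where 50.9% of all genes did. UTP20, a processome scaffold protein, had 534.9 in MDA-MB-231 against 127.1 in T-47D with JPH203, and 567.1 against 187.3 with Captisol. DDX21, an RNA helicase of polymerase I transcription and rRNA processing, had 2667.2 against 606.7 with JPH203 and 2643.1 against 918.6 with Captisol. The second probe set of DDX21 gave a Captisol ratio of 2.84, beside 2.88 for the first. For UTP20 and DDX21 both MDA-MB-231 signals were above both T-47D signals. This was so for 38.7% of 5265 genes at 100 or above on all 4 arrays. NOP14 had 401.6 in MDA-MB-231 against 102.7 in T-47D with JPH203, and 361.8 against 133.3 with Captisol. DDX10, a helicase, had 502.6 against 167.7 with JPH203 and 539.5 against 190.7 with Captisol, and WDR75, the human homologue of yeast Utp17, 383.7 against 222.4 and 406.5 against 164.0 on the same arrays. DDX10 and WDR75 too were higher on both MDA-MB-231 arrays than on both T-47D arrays, as were 38.7% of all genes so measured. UTP14A had a Captisol ratio of 1.82 and HEATR1, the homologue of yeast Utp10, of 1.09. WDR43 reached 100 in MDA-MB-231 alone, with 178.4 against 33.4 with JPH203 and 202.4 against 34.5 with Captisol.

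In large subunit assembly 9 members reached 100 on both Captisol arrays. All of them but DDX56 had a ratio above 1, where 50.9% of all genes did. RRP1B had 1422.1 in MDA-MB-231 against 279.8 in T-47D with JPH203, and 1456.5 against 534.7 with Captisol. GNL2, a nucleolar GTPase, had 728.9 against 198.8 with JPH203 and 696.3 against 252.5 with Captisol. WDR12, which forms the PeBoW complex with PES1 and BOP1, had 803.1 against 404.0 with JPH203 and 907.6 against 393.5 with Captisol. For these 3 genes both MDA-MB-231 signals stood above both T-47D signals, as for 38.7% of all genes at 100 or above on all 4 arrays. BRIX1 had 351.8 in MDA-MB-231 against 141.9 in T-47D with JPH203, and 345.0 against 113.3 with Captisol. NIP7 had 690.8 against 286.2 with JPH203 and 667.5 against 305.1 with Captisol. The Captisol ratios of NOP16 (1.89), PES1 (1.64) and RRS1 (1.42) were smaller, that of DDX56, a helicase, was 0.64, and NOP2, a methyltransferase of 28S rRNA, was below 100 in T-47D.

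In the late group TSR1, a GTPase-like factor of the pre-40S particle, had 633.6 in MDA-MB-231 against 172.0 in T-47D with JPH203, and 942.9 against 263.4 with Captisol. Its 3 probe sets at 100 or above on both Captisol arrays gave ratios of 3.58, 3.02 and 1.88, all on the same side. NOB1, the endonuclease that makes the 3′ end of 18S rRNA, had 263.3 against 298.3 with JPH203 and 288.3 against 283.0 with Captisol. RRP12, an export factor, had 142.7 against 125.4 with JPH203 and 167.7 against 231.7 with Captisol, so that neither gene kept 1 order. Of the 8 members with another probe set at 100 or above on both Captisol arrays, 8 lay on the same side of 1 with it. Whether 2-fold was passed still depended on the probe set for some. Other probe sets gave 1.48 and 1.27 for NOLC1 and 1.87 for NIP7, both called from the brightest. For NOP16, not called, the second gave 2.72.

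On all 4 arrays 28 members were at 100 or above. For 20 of them both MDA-MB-231 signals were above both T-47D signals, where this was so for 38.7% of 5265 genes, and for 2 of them, NPM1 and DDX56, both were below, against 41.1% of the genes.

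**Figure D2:**
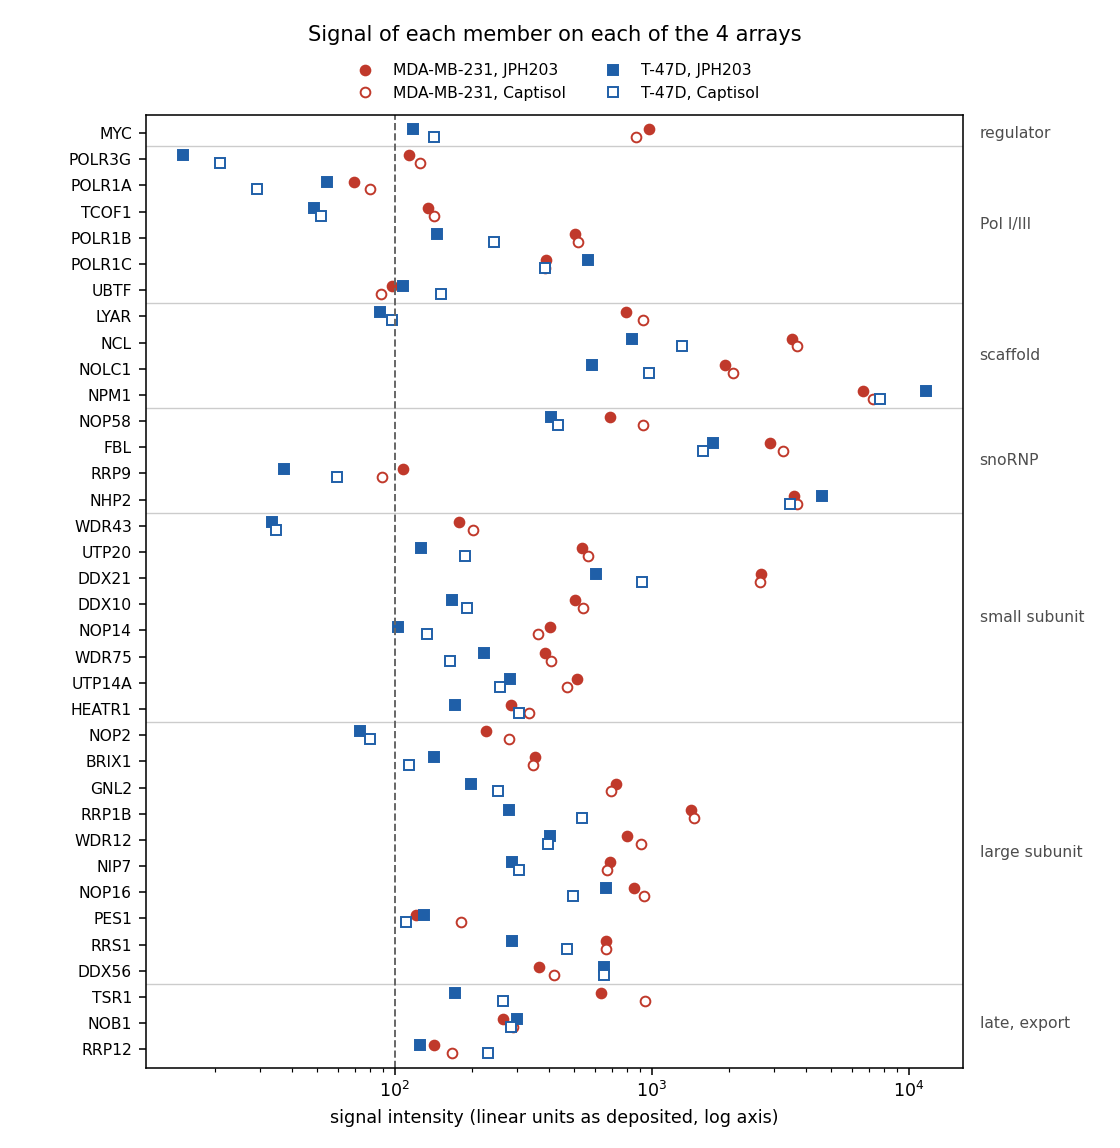
Signal intensity (horizontal log axis, linear units as deposited) of the 36 members with a probe set of their own (vertical axis, by functional group) on the MDA-MB-231 arrays (red circles) and T-47D arrays (blue squares), filled for JPH203 and open for Captisol; the dashed line marks the minimum of 100. Of the 28 members at 100 or above on all 4 arrays, 20 have both red circles right of both blue squares, while NPM1, NHP2, POLR1C, HEATR1, PES1, DDX56, NOB1 and RRP12 do not follow this order.

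The canonical E-box CACGTG, which reads the same on both strands, was looked for in the 250 bases before the start sites of RefSeq (GRCh38.p14), counting a gene when any of its listed starts had it. It was found for 5 of the 32 members with an entry, or 15.6%, against 9.73% of 15842 protein-coding genes and 7.73% of all 27305 genes in the table. The 5 windows are shown because they hold the letters that MYC is known to bind, 30 bases each, 5′ to 3′ on the strand of the gene, with the E-box in capitals.
LYAR, chr4:4290068-4290097, minus strand: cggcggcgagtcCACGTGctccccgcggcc
DDX21, chr10:68956604-68956633, plus strand: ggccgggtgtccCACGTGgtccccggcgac
UTP20, chr12:101280075-101280104, plus strand: gcgccgttcttttttccgtcCACGTGaccc
UTP14A, chrX:129905914-129905943, plus strand: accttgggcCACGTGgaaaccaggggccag
EBNA1BP2, chr1:43172790-43172819, minus strand: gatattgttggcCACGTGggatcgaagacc
The E-box began 10 bases before the start in UTP20, 31 in DDX21, 64 in LYAR, 237 in EBNA1BP2 and 241 in UTP14A. UTP20, DDX21 and UTP14A had Captisol ratios (MDA-MB-231 over T-47D) of 3.03, 2.88 and 1.82, LYAR was below 100 in T-47D cells, and EBNA1BP2, a large subunit factor, had no probe set of its own. The median Captisol log2 ratio (MDA-MB-231 over T-47D) was 1.56 over the 4 measured members with the letters, LYAR included, and 1.11 over the 22 without, and on the JPH203 arrays it was 2.1 over 4 and 0.99 over 23. In T-47D the median log2 ratio of JPH203 over Captisol was -0.56 over 3 with and 0.02 over 20 without. The medians between the lines use the minimum on 1 array, so the side of some genes was set by the filter. LYAR, WDR43 and NOP2 passed only through MDA-MB-231, as did RRP9 on the JPH203 arrays, and UBTF only through T-47D. The medians with and without the letters are therefore not compared. Groups of 3 or 4 genes allow a description alone. A match is a description of the sequence and no measure of binding.

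The second question was how the same genes stood after JPH203. In MDA-MB-231 cells, 0 of the 33 members at 100 or above on both arrays changed by 2-fold and 0 by 1.5-fold in either direction. The background was nearly as still, since 0.103% of 6777 genes were called at 2-fold, 0.31% were at least 1.5-fold lower and 0.561% at least 1.5-fold higher. The ratios of the 34 members at 100 or above on 1 array ran from 0.672 to 1.21, with a median log2 ratio of -0.09 against 0.0 for all genes. Of the 34 members 25 lay below 1, where 51.1% of all genes did, but 17 did with the arrays scaled to the poly-A transcripts, when the median was 0.0. Outside the central 95% of all genes, 0.778 to 1.32, there were 3 members, TSR1 at 0.672, PES1 at 0.673 and NOP58 at 0.747. PES1, a core protein of the PeBoW complex, had 121.6 with JPH203 against 180.7 with Captisol, both near the minimum. For TSR1 the other 3 probe sets at 100 or above gave 0.951, 1.01 and 1.13, so the low ratio rested on 1 of 4. MYC had a ratio of 1.12, and NCL, NPM1, FBL and DDX21 had ratios of 0.961, 0.914, 0.893 and 1.01.

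In T-47D cells the members moved more. None of 29 passed 2-fold (0 called), where 4.64% of 6416 genes did, but 9 of 29 were at least 1.5-fold lower with JPH203 and 1 was at least 1.5-fold higher, against 13.6% lower and 11.6% higher of all genes. The split of 9 lower and 1 higher was 11 and 0 with median centring, when 22.3% of all genes were at least 1.5-fold lower, 7 and 0 after quantile normalization (10.2%) and 7 and 2 after loess (10.8%). It was 19 and 0 with poly-A scaling, when 57.7% of all genes were lower and their median log2 ratio was -0.71. With the mean of a gene's probe sets, which left 17 members measured, 2 were at least 1.5-fold lower, against 8.5% of all genes, and with the probe set whose lowest signal was highest 9 of 29 were, against 13.3%. The median log2 ratio was -0.19, against -0.05 for all genes, and stayed below 0 under each scaling, though at -0.04 after quantile normalization and -0.02 after loess. Of the 29 members, 17 lay below a ratio of 1, which is close to the background of 53.7% of all genes. The T-47D ratios of all genes were also wider, with a central 95% of 0.503 to 1.97 that held all 29 members.

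The 9 lower members came from 5 of the groups. The lowest was RRP1B, at 279.8 with JPH203 against 534.7 with Captisol, a ratio of 0.523. RRP12 had 125.4 against 231.7 (0.541) and HEATR1 171.7 against 305.3 (0.562). HEATR1 was lower with a second probe set too, at a ratio of 0.631. NOLC1 had 585.6 against 980.5 (0.597) and POLR1B 146.0 against 243.4 (0.600). The other 2 probe sets of NOLC1 gave 0.80 and 0.843, which are on the same side of 1 but short of 1.5-fold. RRS1, which brings the 5S particle into the large subunit, had 286.1 against 467.0 (0.613), and NCL had 840.2 against 1308.6 (0.642). TSR1 had 172.0 against 263.4 (0.653), with 0.597 and 0.798 from its other probe sets at 100 or above, and DDX21 606.7 against 918.6 (0.660), with 0.694 from its second. The genes therefore span polymerase I, the scaffold, both subunits and export rather than 1 particle. UTP20 at 0.679 lay just outside the 1.5-fold limit.

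Other members stood on the opposite side. NPM1 had 11669.0 with JPH203 against 7723.8 with Captisol, a ratio of 1.51, with 1.43 and 1.37 from its other 2 probe sets. POLR1C had 562.8 against 385.2 (1.46), and 1.27 from its second probe set. The scaffold and polymerase groups thus each held members on both sides, NPM1 against NCL and NOLC1, and POLR1C against POLR1B. WDR75 had 222.4 against 164.0 (1.36), NOP16 663.2 against 494.5 (1.34) and NHP2 4600.9 against 3449.3 (1.33). The second probe set of NOP16 gave 1.59. NOB1 was the highest of the late group at 298.3 against 283.0 (1.05), and NOP58 the lowest of the 3 snoRNP proteins above the minimum at 405.2 against 432.3 (0.937). MYC had 118.0 against 142.7, a ratio of 0.827 that lies well inside the range of all genes. Of 8 members with a second probe set at 100 or above on both T-47D arrays, 7 lay on the same side of 1 with it, NIP7 being the exception.

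**Figure D3:**
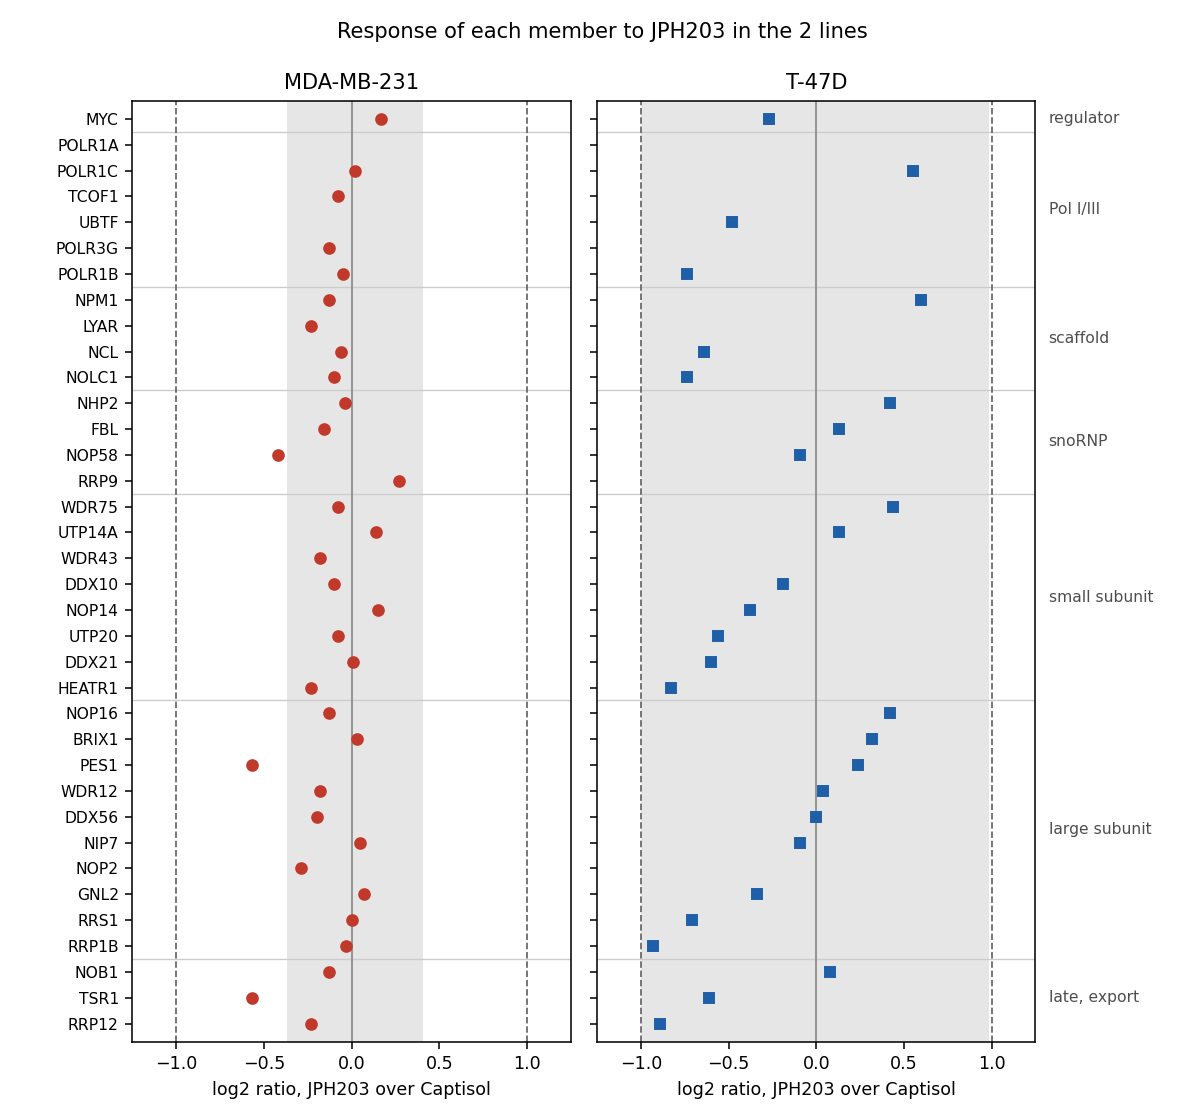
Log2 ratio of JPH203 over Captisol (horizontal axes) of each member (vertical axis, by functional group) in MDA-MB-231 cells on the left and T-47D cells on the right; the grey band holds the central 95% of all genes in that line, dashed lines mark 2-fold, and members below 100 on both arrays of a line have no point. The MDA-MB-231 points cluster near 0, with TSR1, PES1 and NOP58 left of the band, while the T-47D points spread from 0.523-fold for RRP1B to 1.51-fold for NPM1 inside a wider band.

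The responses of the 2 lines were set side by side for the 28 members measured in both. The SD of their log2 ratios was 0.184 in MDA-MB-231 and 0.48 in the T-47D line, beside 0.197 and 0.513 for all genes. With JPH203, 10 members were lower in both lines, 8 were lower in MDA-MB-231 but higher in T-47D, 5 were higher in MDA-MB-231 but lower in T-47D and 3 were higher in both, and 2 had a log2 ratio of 0 in 1 line. In MDA-MB-231 the ratios lay close to 1, and of 10 members with another probe set at 100 or above on both arrays, 5 lay on the same side with it and DDX21, NIP7, NOP16, POLR1C and TSR1 did not. The 9 members lower in T-47D cells had MDA-MB-231 ratios between 0.672 and 1.01. Among these 9, TSR1 had the lowest MDA-MB-231 ratio, 0.672, beside 0.653 in T-47D.

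In T-47D cells the response of all genes moved with gene length. The median log2 ratio of all genes was 0.15 for genes under 10 kb and -0.31 for those above 80 kb. The median length of the members was 23.8 kb against 27.0 kb for all genes, and that of the 9 lower members was 28.9 kb, from 1.7 kb for RRS1 to 55.5 kb for HEATR1. By length, the median log2 ratio of the members was -0.04 under 10 kb (6 members, all genes 0.15), -0.48 from 10 to 20 kb (7 members, all genes 0.07) and -0.09 from 20 to 40 kb (11 members, all genes -0.01). It was -0.83 from 40 to 80 kb (3 members, all genes -0.11) and -0.38 above 80 kb (2 members, all genes -0.31). The gap to all genes thus differed between the bins and was small in the one with most members. With the length trend removed, 9 members were at least 1.5-fold lower and 1 higher, against 11.2% and 11.0% of all genes. The 3′ over 5′ ratio of ACTB, a sign of RNA integrity, was also higher on the JPH203 array of this line (1.72) than on its Captisol array (1.39). That of GAPDH went the other way, at 0.867 with JPH203 and 0.94 with Captisol. The part of RNA integrity in this trend was not tested.

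**Figure D4:**
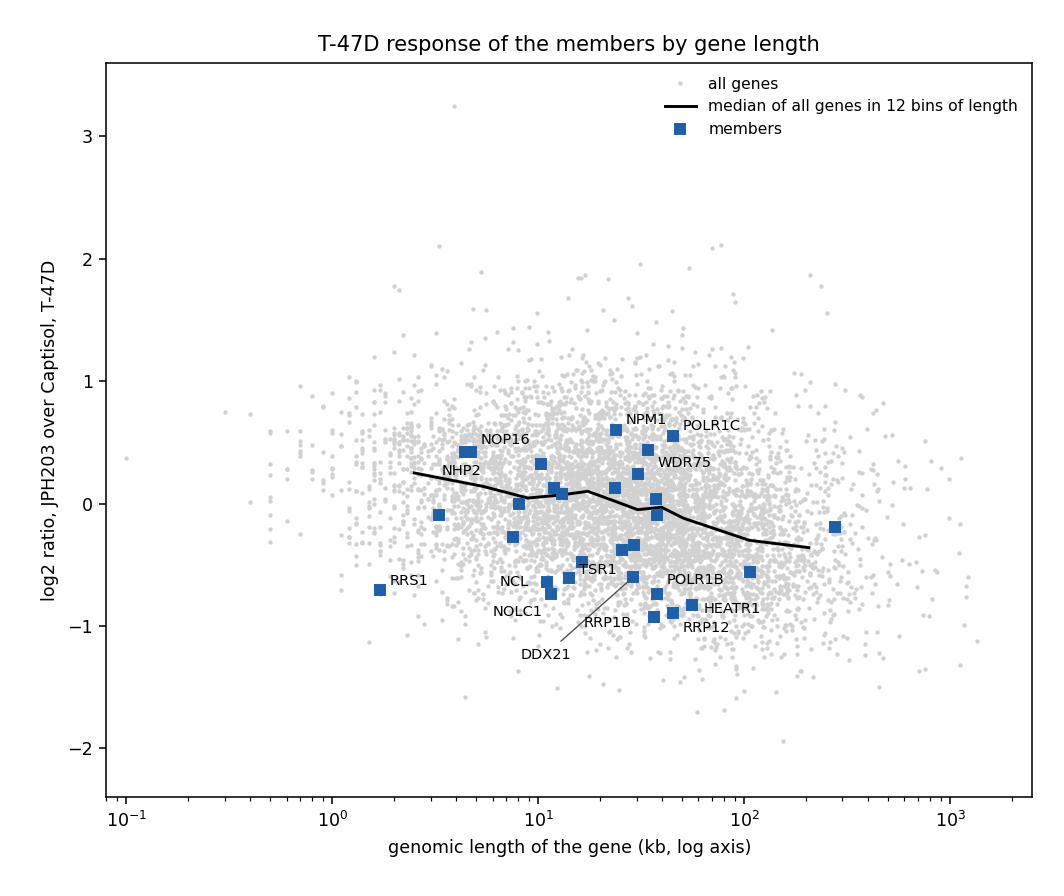
Log2 ratio of JPH203 over Captisol in T-47D cells (vertical axis) against the genomic length of the gene in kb (horizontal log axis), for all genes at 100 or above on both arrays (grey), their median in 12 bins of length (line) and the members (blue squares). The line slopes down with length. Members at least 1.5-fold lower have lengths from 1.7 kb (RRS1) to 55.5 kb (HEATR1), and that they lie below the line follows from how they were picked.

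For comparison, 149 of 154 other ribosome biogenesis genes had a probe set of their own. With Captisol and the minimum on 1 array, their median log2 ratio was 0.57 over 142 genes, beside 1.17 over 34 members. The side of some genes in both sets was set by the filter, so these medians are not compared. With the minimum on both Captisol arrays, 17 of 28 members and 16.3% of all genes were called higher in MDA-MB-231. Of the 116 other genes measured this way, 29 were 2-fold or more above T-47D in MDA-MB-231 and 4 were 2-fold or more below. The highest were POLR1E, a polymerase I subunit, at 542.9 in MDA-MB-231 against 109.5 in T-47D, TEX10 at 503.9 against 105.3, NIFK at 1610.1 against 347.6 and the exosome subunit EXOSC2 at 799.0 against 177.1. The lower ones were BRF2 and GTF3C1, both of polymerase III transcription, at ratios of 0.271 and 0.346, EXOSC4 at 0.40 and the polymerase I subunit POLR1H at 0.481. After JPH203 0 of 132 were called in MDA-MB-231, against 0.103% of all genes, and the median log2 ratio was -0.08. In T-47D cells 5 of 115 were at least 2-fold higher and 2 lower, and 15 were at least 1.5-fold higher and 9 lower. Of all genes, 11.6% were at least 1.5-fold higher and 13.6% lower. The median log2 ratio was 0.10, against -0.05 for all genes. The largest change was in RSL24D1, a factor of pre-60S maturation, at 4596.0 with JPH203 against 1287.8 with Captisol. NOPCHAP1, a chaperone of box C/D assembly, followed at 544.7 against 237.0, then RSL1D1 at 1039.0 against 476.7 and EXOSC1 at 2304.3 against 1086.6. EFL1, a GTPase of 60S release, had 114.3 against 249.2 and the helicase DDX27 409.9 against 872.5. These 7 calls of 115 are near the 4.64% of all genes called in this line.

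Of the MYC network, partners and regulators of MYC, 15 of 17 genes had a probe set of their own. With Captisol, 16.3% of all genes were called higher in MDA-MB-231 and 16.1% lower. With JPH203, 4.64% of all genes were called in T-47D cells and 0.103% in MDA-MB-231 cells. With Captisol AURKA, a kinase that stabilises MYC family proteins, was called higher in MDA-MB-231 (2762.3 against 807.8 in T-47D) and MNT, a repressor that shares the partner MAX, lower (101.2 against 258.2), out of 8 measured, and MAX had a ratio of 1.65. With JPH203 in T-47D cells MYCBP2, a large ubiquitin ligase that binds MYC, was called lower of 9 measured, at 107.6 against 252.4, and in MDA-MB-231 cells 0 of 8 were called. Of MYC-linked genes that act outside the nucleolus, 6 of 20 were called higher in MDA-MB-231 with Captisol and 1 lower. The shares of all genes were again 16.3% and 16.1%. Among the 6 were HK2, a glycolytic enzyme, at 1039.0 in MDA-MB-231 against 123.6 in T-47D, and ODC1, of polyamine synthesis, at 3860.0 against 1168.0. PRMT3 had 469.5 against 178.4 and C1QBP 4855.5 against 1900.4. SHMT2, of serine and glycine metabolism, was the lower one, at 972.7 against 2438.8. With JPH203 1 of 20 was called in T-47D cells, TFRC, the transferrin receptor, at 4168.7 against 8402.8, and 0 of 22 in MDA-MB-231 cells. The 1 of 20 is near the 4.64% of all genes called in T-47D cells.

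All 42 listed genes are accounted for. NOP56 and DKC1 of the snoRNPs and BOP1 of the PeBoW complex are covered only by probe sets that name several genes, and GNL3, DDX18 and EBNA1BP2 have no probe set named for them in the annotation used, so no value is given. At the minimum signal, the member just inside in MDA-MB-231 cells was RRP9, a U3 snoRNP protein, with signals of 107.8 for JPH203 and 89.2 for Captisol, and just outside lay UBTF at 97.4 and 88.3. In T-47D cells PES1 was just inside at 130.0 and 110.3, and LYAR just outside at 88.0 and 97.7.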

How the data were processed

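The authors deposited signal intensity values on a linear scale for 54675 probe sets on 4 arrays. The submitters' processing notes name GCOS, whose version and settings are not given in the sources used here. Without the extreme 2% of values at either end the array means were all close to 100, as when arrays are scaled singly to 1 target. Here 41097 probe sets named 1 gene and 1801 several in the platform annotation, 11777 were not listed, and 41043 were matched by gene identifier to RefSeq. Genes with several own probe sets were read from the brightest. A ratio was called at 2-fold, the fold of the study, where both arrays reached a signal of 100, and a median used genes at 100 or above on at least 1 array. A ratio against a signal below 100 was not read as a size. With 1 array per group no test was run, and the number of arrays limits the precision.

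The members and lists were chosen with earlier results of these data known. Signals on all arrays are given for members called in a comparison, MYC, and the highest and lowest T-47D responder of each group, and of other lists up to 4 called genes each way. Array values of further members (LYAR, WDR43, UBTF, TCOF1, POLR3G, PES1, RRS1 and RRP9) were added after they were seen. The alternatives were 4 scalings, a pseudocount of 16, minimum signals of 50, 200 and none, folds of 1.5 and 3 and other probe set choices. The length trend (loess, span 0.4), the comparison of the JPH203 arrays and the count at 1.5-fold were chosen after seeing the data. A 2-fold call with the minimum on 1 array was tried on simulated data with 3-fold changes. The rule used for the calls, with the minimum on both arrays, was not simulated. The tools were matplotlib 3.10.9, statsmodels 0.14.6, scipy 1.17.1, pandas 2.3.3 and numpy 2.4.6 under Python 3.11.15.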

Additional observations from a re-analysis of the deposited data

Results flagged for a closer look

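PES1 stood on opposite sides of 1 in the 2 lines and outside the central 95% of all genes in MDA-MB-231 cells. Its signals were 121.6 with JPH203 against 180.7 with Captisol in MDA-MB-231 cells and 130.0 against 110.3 in T-47D cells, and the log2 ratio in MDA-MB-231 minus that in T-47D cells was -0.81. The difference was not tested, since each array was run once, and all 4 signals lie near the minimum of 100. Opposite sides were common. Of 28 members, 8 were lower in MDA-MB-231 but higher in T-47D and 5 the reverse. For RRP1B the difference was larger in size, at 0.9, and its spread over all genes was not taken.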

How the results depend on the processing

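No paired analysis was possible because each group had 1 array, and no array could be left out. The count of 0 members called in MDA-MB-231 cells held under the 15 other settings, and its median log2 ratio stayed between -0.1 and 0.0. In T-47D cells with JPH203, the count called was 2 (all lower) with median centring, 13 (all lower) with poly-A scaling and 10 at 1.5-fold, and the median was -0.35 with centring, -0.04 with quantile normalization, -0.02 with loess, -0.85 with poly-A scaling, -0.09 at a minimum of 200, -0.04 for the mean of probe sets, -0.09 without probe sets marked as shared between transcripts and -0.3 without the length trend. The count at least 1.5-fold lower was 19 with poly-A scaling (57.7% of all genes) and 5 of 16 at a minimum of 200 (11.0%). It was 2 of 17 for the mean of probe sets (8.5%) and 5 of 19 without shared probe sets (14.4%). For the 2-fold counts under other settings, here and below, no share of all genes was taken, so they have no background. On the Captisol arrays the count was 28 with poly-A scaling, 11 of 20 at a minimum of 200, 11 of 18 for the mean of probe sets, 11 of 18 without shared probe sets and 4 at 3-fold, and the median 1.39 with centring, 2.85 with poly-A scaling, 1.28 for the mean of probe sets and 1.29 without the length trend. On the JPH203 arrays the count was 28 with poly-A scaling, 6 of 17 at a minimum of 200, 8 of 18 for the mean of probe sets, 8 of 18 without shared probe sets and 22 at 1.5-fold, and the median 1.69 with centring, 1.14 with quantile normalization, 1.19 with loess, 3.75 with poly-A scaling and 1.1 with the minimum on both arrays. Of single members, RRP1B had a log2 ratio of -0.22 on the Captisol arrays for the mean of its probe sets, of which 1 was below 100 on all arrays, and NCL one of -1.62 on the JPH203 arrays from its dim second probe set. The other called members kept their side, while over all members and settings 93 single ratios crossed 1, 29 of them with poly-A scaling. Poly-A scaling moved the median of all genes to -0.71 in T-47D cells and to 1.68 between the lines with Captisol, and centring moved these to -0.22 and 0.23. Poly-A scaling rests on equal amounts of added transcript, which is not stated.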
